A study of Mus musculus with 6 samples.

Results

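The angiopoietins, their Tie receptors and the phosphatase VE-PTP form a small signaling system of blood vessels, and its 6 mouse genes were taken by name from the deposited gene expression table. All 6 members, *Angpt1*, *Angpt2*, *Angpt4*, *Tek*, *Tie1* and *Ptprb*, were found among the 34745 genes listed. The data are RNA-seq libraries of cardiac fibroblasts from the left ventricle of KDM5B-knockout (KO) mice and littermate wild-type (WT) mice on Day 7 after myocardial infarction (MI), which was induced by ligating the left anterior descending coronary artery in males of 8 to 10 weeks. There were 3 libraries labelled KO and 3 labelled WT, and all 6 came from infarcted hearts. In the knockout, CRISPR/Cas9 removed from *Kdm5b* the bases that hold the JmjC domain and shifted the reading frame, with no cell-type-specific Cre named. Nothing states whether the 3 libraries of a label came from separate animals, so the tests measure the spread between these libraries.

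As background, Tie2, the product of *Tek*, is a receptor tyrosine kinase of endothelial cells. Angiopoietin-1, made mainly by mural and stromal cells, activates Tie2 and keeps vessels quiet and tight, while angiopoietin-2, released by activated endothelium, activates it weakly or blocks it depending on context. Tie1 is a related receptor with no well-established angiopoietin binding of its own that forms complexes with Tie2, and VE-PTP, the product of *Ptprb*, removes phosphate from Tie2 and from VE-cadherin junctions. Active Tie2 signals through AKT, which holds back the transcription factor FOXO1, a driver of *Angpt2*.

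In the libraries labelled KO, *Tie1* was 8.38-fold higher than in those labelled WT, *Tek* was 1.44-fold higher, and *Ptprb*, *Angpt1*, *Angpt2* and *Angpt4* did not pass the threshold. By level, *Tie1* stood below *Ptprb* and *Tek* in the libraries labelled WT and above all other members in those labelled KO. Of the 6 members, 2 were higher and 0 were lower by the quasi-likelihood test of edgeR (Benjamini-Hochberg adjusted p below 0.05, over 14084 genes tested), where 17.7% of all genes tested were higher, 12.5% were lower and 30.2% passed in either direction. The median log2 fold change was 0.25 over the members and -0.02 over all genes tested. A scaling on cardiomyocyte and macrophage marker genes, used in earlier work on these data, moves the median of all genes to 0.38, calls 8523 genes higher and 46 lower in place of 2488 and 1760, and calls 4 members higher (*Tie1*, *Tek*, *Angpt2* and *Ptprb*).

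**Figure D1:**
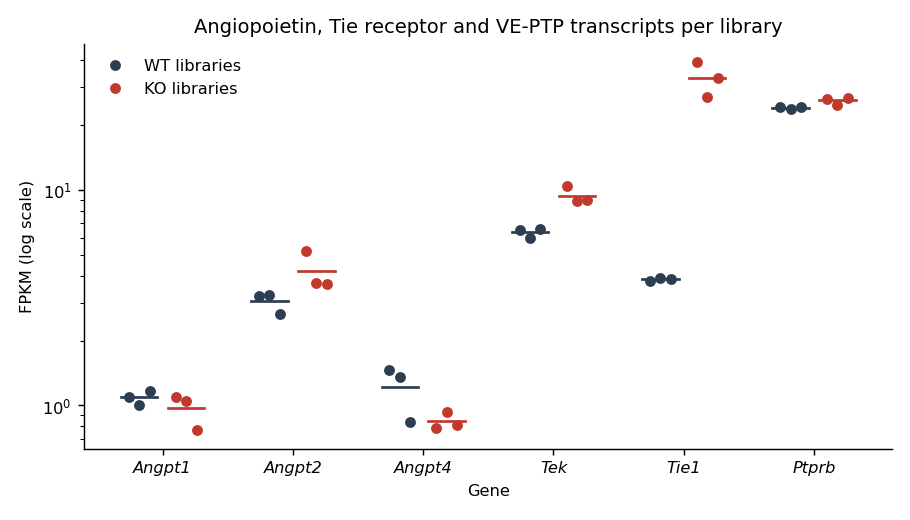
Deposited FPKM values (log scale) of the 6 members in each library, with points for libraries, horizontal lines for the mean of each label, KO in red and WT in dark blue. The *Tie1* values of the libraries labelled KO, from 27.1 to 39.1, lie far above the WT values near 3.85, while the *Ptprb* values stay between 23.7 and 26.8 in all 6 libraries.

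The libraries held between 12025403 and 15329427 counts, and 3 counts, the upper limit that a count of 0 allows, correspond to 0.249 CPM in the smallest. For *Kdm5b* itself, the libraries labelled KO gave 98.1, 107 and 105 CPM and those labelled WT gave 108, 129 and 123 CPM (log2 fold change -0.22, adjusted p = 0.0574 from edgeR). The values did not overlap but missed the threshold, and counts per gene do not show where in the transcript the reads lie. By Q-PCR the paper found almost no *Kdm5b* mRNA in KO cardiac fibroblasts, which are not described there as taken from infarcted hearts. The cause of the difference from these counts was not tested. All 12 fibroblast marker genes were detected, with a summed level of 3243 to 3745 FPKM in the libraries labelled KO and 4400 to 4686 FPKM in those labelled WT. Of these 12, 0 were higher and 10 lower (median log2 fold change -0.41), where 12.5% of all genes tested were lower. The other marker lists were present too. The summed FPKM of 26 endothelial markers ran from 466 to 625 in the libraries labelled KO and from 116 to 119 in those labelled WT, that of 12 macrophage markers from 830 to 858 and from 1026 to 1102, and that of 12 cardiomyocyte markers from 362 to 402 and from 487 to 504. Single genes made up most of some sums, with mean FPKM of 661 and 866 for *Lyz2* among the macrophage markers, 215 and 284 for *Nppa* among the cardiomyocyte markers and 1819 and 2417 for *Col1a1* among the fibroblast markers (KO and WT labels). Of 11 cardiomyocyte markers tested, 0 were higher and 8 lower. Of the macrophage markers 1 was higher and 7 were lower, and the higher one was *Cd68*, a lysosomal protein gene (log2 fold change 1.38, adjusted p = 3.9e-05 from edgeR), against the direction of the sum. In bulk libraries of this kind, more cells of a type and more RNA per cell cannot be told apart.

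For the receptor genes *Tek* and *Tie1*, which lie on the same chromosome and both rose, the bases just before the gene are shown because these are the members that passed the test. The sequences come from RefSeq's promoter table (GRCm38.p6), which had entries for 3 of the 6 members, and run 5′ to 3′ on the strand of the gene. Capitals mark GGAA, the core of the sites that ETS transcription factors bind, or its reverse complement TTCC. The *Tek* stretch is chr4:94739039-94739288 on the plus strand. The *Tie1* stretch is chr4:118490062-118490099 on the minus strand and is short because RefSeq's start site lies 212 bases inside the gene as deposited, and transcribed bases are not shown.
Tek: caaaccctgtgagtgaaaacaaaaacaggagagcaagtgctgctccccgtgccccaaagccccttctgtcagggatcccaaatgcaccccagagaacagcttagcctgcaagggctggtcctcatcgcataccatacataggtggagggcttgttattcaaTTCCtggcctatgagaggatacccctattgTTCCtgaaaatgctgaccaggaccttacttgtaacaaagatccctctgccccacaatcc
Tie1: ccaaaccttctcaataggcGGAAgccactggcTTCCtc

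In the 250 bases before RefSeq's start site, counted on both strands and with no overlap with the other motifs searched, GGAA was found 7 times for *Tie1* and 2 times for *Tek*. At least 7 matches were found in 3.82% of the 32851 promoters of this length, and at least 2 in 76.8%. Only 2 of the 7 matches for *Tie1* lie before the gene as deposited. The forkhead core AAACA was found 2 times for *Tek* and 0 times for *Tie1*, against at least 2 matches in 18.3% of promoters and any match in 46.4%. The letters GATA were found 1 time for *Tek* and 0 times for *Tie1*, with a match in 53.6% of promoters, and TATAAA was found in neither (12.4% of promoters). These matches describe the sequence and are not evidence of binding.

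*Tie1* (ENSMUSG00000033191, chromosome 4 from 118471191 to 118490061 in mm10, minus strand), the receptor with no well-established angiopoietin binding, had 39.1, 27.1 and 33.0 FPKM in the libraries labelled KO and 3.78, 3.90 and 3.87 FPKM in those labelled WT. All 3 libraries labelled KO lie above all 3 labelled WT, and KO replicate 1 is the highest. Its log2 fold change on TMM-normalized counts was 3.07 (standard error 0.13, adjusted p = 4.0e-06 from edgeR), above that of 98.5% of the genes tested. The libraries labelled WT were close to each other, with 330, 351 and 333 counts, so the gene was well above the floor there.

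*Tek* (ENSMUSG00000006386, chromosome 4 from 94739289 to 94874976, plus strand), which encodes the angiopoietin receptor Tie2, had 10.4, 8.87 and 8.96 FPKM in the libraries labelled KO. In the libraries labelled WT it had 6.52, 5.99 and 6.60 FPKM. The labels did not overlap here either, but the distance was much smaller than for *Tie1*. On the log2 scale it was higher by 0.53 (standard error 0.08, 95% interval from 0.35 to 0.70, adjusted p = 0.00161 from edgeR), above that of 87.3% of the genes tested. The interval of *Tek* does not reach the lower bound of that of *Tie1* (2.78).

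*Ptprb* (ENSMUSG00000020154, chromosome 10 from 116301374 to 116389538, plus strand), the VE-PTP gene, had 26.5, 24.9 and 26.8 FPKM in the libraries labelled KO and 24.3, 23.7 and 24.3 FPKM in those labelled WT. Every library labelled KO was above every library labelled WT, but by a small step. Its log2 fold change was 0.08 (standard error 0.04, 95% interval from -0.02 to 0.18, adjusted p = 0.216 from edgeR), so a change as large as that of *Tek* lies outside its interval with TMM normalization. With the scaling on marker genes the value was 0.48 (adjusted p = 2.8e-04), a shift of the same size as that of all genes. *Ptprb* was the most abundant member in the libraries labelled WT.

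*Angpt2* (ENSMUSG00000031465, chromosome 8 from 18690263 to 18741562, minus strand), the context-dependent ligand, had 5.24, 3.72 and 3.65 FPKM in the libraries labelled KO and 3.24, 3.26 and 2.65 FPKM in those labelled WT. The labels did not overlap, with KO replicate 1 standing above the other two. The log2 difference was 0.42 ± 0.16 (standard error; adjusted p = 0.0863, edgeR), short of the threshold, and without KO replicate 1 it was 0.25 (adjusted p = 0.221). The gene lies within *Mcph1*, a chromosome condensation gene on the other strand, with 0 shared exon bases in GENCODE M21, and *Mcph1* was higher by a similar amount (log2 fold change 0.46, adjusted p = 0.0122 from edgeR). The libraries were strand-specific, but how strand entered the counting is not given in the sources used here, and the part of *Mcph1* reads in the *Angpt2* counts was not tested.

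*Angpt1* (ENSMUSG00000022309, chromosome 15 from 42424727 to 42676977, minus strand), the Tie2 agonist, had 1.09, 1.05 and 0.766 FPKM in the libraries labelled KO and 1.09, 1.01 and 1.17 FPKM in those labelled WT. The labels overlapped. Its counts ran from 50 to 71 per library, and the log2 fold change of -0.21 (95% interval from -0.63 to 0.21, adjusted p = 0.419 from edgeR) has an interval that spans both directions. An antisense transcript, *Gm17473*, shares 737 exon bases with it but had at most 1 count in any library.

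*Angpt4* (ENSMUSG00000027460, chromosome 2 from 151911210 to 151945337, plus strand), the third angiopoietin, was the member with the fewest counts, from 22 to 49 per library. It had 0.783, 0.936 and 0.810 FPKM in the libraries labelled KO and 1.45, 1.35 and 0.842 FPKM in those labelled WT. WT replicate 3 lay within the range of the libraries labelled KO, so the labels overlapped. The log2 difference was -0.56 ± 0.26 (standard error; adjusted p = 0.138, edgeR), short of the threshold, and without WT replicate 3 it was -0.77 with an adjusted p of 0.0477.

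Of the 6 members, 4 did not overlap between the labels (*Tie1*, *Tek*, *Ptprb* and *Angpt2*), all with the libraries labelled KO higher, where 47% of all genes tested did not overlap in either direction and 24.7% did so with KO higher. In the libraries labelled WT the order of the FPKM levels was *Ptprb* (24.1 ± 0.323, SD, n = 3), *Tek* (6.37 ± 0.331), *Tie1* (3.85 ± 0.0615), *Angpt2* (3.05 ± 0.345), *Angpt4* (1.22 ± 0.328) and *Angpt1* (1.09 ± 0.0803). In the libraries labelled KO it was *Tie1* (33.1 ± 5.98), *Ptprb* (26.0 ± 1.03), *Tek* (9.40 ± 0.852), *Angpt2* (4.20 ± 0.898), *Angpt1* (0.969 ± 0.177) and *Angpt4* (0.843 ± 0.0816). *Angpt1* and *Angpt4* overlapped in both labels and cannot be ordered, while the ranges of all other neighbors were separate. These levels rest on the gene lengths behind the deposited FPKM, which for *Tek* is 7558 bases against 4712 exon bases in GENCODE M21, and with GENCODE lengths, an alternative chosen after seeing the data, only *Angpt1* and *Angpt4* exchanged places, in the libraries labelled KO.

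Ratios between members within a library take out most of the effect of how libraries are scaled. *Tie1* stood at 3.76, 3.06 and 3.68 times the FPKM of *Tek* in the libraries labelled KO and at 0.580, 0.651 and 0.585 times in those labelled WT. *Tie1* was above *Tek* in every library labelled KO and below it in every library labelled WT. The log2 ratio of FPKM + 0.1 was 1.79 ± 0.165 (SD, n = 3) against -0.71 ± 0.0907, a difference of 2.50 (p = 0.1 by an exact permutation test, two-sided, which can reach no smaller p with 3 libraries per label).

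The phosphatase was lower relative to its receptor. *Ptprb* stood at 2.55, 2.80 and 2.99 times the FPKM of *Tek* in the libraries labelled KO and at 3.72, 3.96 and 3.68 times in those labelled WT, a log2 difference of -0.44 without overlap (exact permutation test, p = 0.1, the smallest possible). Among the ligands, *Angpt2* stood at 4.78, 3.56 and 4.76 times the FPKM of *Angpt1* in the libraries labelled KO and at 2.97, 3.23 and 2.26 times in those labelled WT. This log2 difference of 0.60 was also without overlap (exact permutation test, p = 0.1), but the nearest libraries, at log2 ratios of 1.74 and 1.60, were closer than the SD of either label (0.231 and 0.253). Adjusted over these 3 ratios the p stayed at 0.1.

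**Figure D2:**
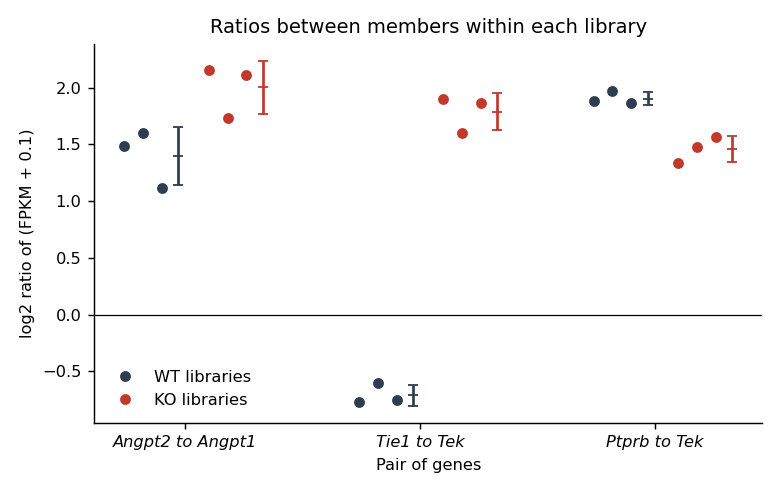
Log2 ratios of FPKM + 0.1 between pairs of members in each library, with points for libraries and bars for mean ± SD (n = 3) of each label, KO in red and WT in dark blue. The *Tie1* to *Tek* ratio crosses 0 between the labels, from about -0.71 to 1.79, while the *Ptprb* to *Tek* ratio is lower and the *Angpt2* to *Angpt1* ratio higher in the libraries labelled KO.

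The members were then set beside a list of 26 other endothelial marker genes, since the Tie receptors and VE-PTP are known as endothelial genes. Of the 26 markers, all tested, 21 were higher, 0 were lower, and the median log2 fold change was 2.54. *Tie1* lay within the upper part of this list, with 7 markers rising more, among them *Ushbp1* (log2 fold change 5.36, under 1 CPM in every library labelled WT), *Pecam1*, an endothelial adhesion molecule (log2 fold change 3.98), and *Kdr*, the main VEGF receptor (4.23). *Tek* lay near the lower end, with 20 markers above it, and *Ptprb* below 21 of them, beside *Eng*, *Cldn5*, *Cyyr1*, *Aqp1* and *Sox17*, the 5 markers that did not pass, named after their values were seen.

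*Tie1* followed *Pecam1* closely in the libraries labelled KO, at 0.479, 0.470 and 0.462 times its FPKM, against 0.808, 0.881 and 0.984 times in those labelled WT. *Tek* went from 1.39, 1.35 and 1.68 times the FPKM of *Pecam1* in the libraries labelled WT to 0.127, 0.154 and 0.126 times in those labelled KO. *Ptprb* went from 5.18, 5.36 and 6.18 times to 0.325, 0.432 and 0.375 times. In the libraries labelled WT only 1 of the 26 markers had a higher mean FPKM than *Ptprb* and 4 had a higher one than *Tek*, while in those labelled KO 7 and 14 did.

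Against the mean log2(FPKM + 0.1) of the whole marker list, *Tie1* was 1.78-fold higher in the libraries labelled KO than in those labelled WT. Each of the other members was lower relative to the list, with log2 differences of -1.67 for *Tek*, -2.11 for *Ptprb*, -1.79 for *Angpt2*, -2.39 for *Angpt1* and -2.67 for *Angpt4*. The labels did not overlap in any of these 6 comparisons (two-sided exact permutation test, p = 0.1 for each and 0.1 when adjusted over the 6, the smallest possible). The list itself rose, so a member with no change of its own also falls relative to it. The comparisons therefore show how far each member moved beside the list, and not that the member itself changed. Over all alternatives these differences ran from 0.50 to 1.01 for *Tie1* and stayed negative for *Tek*, at -1.29 or lower.

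**Figure D3:**
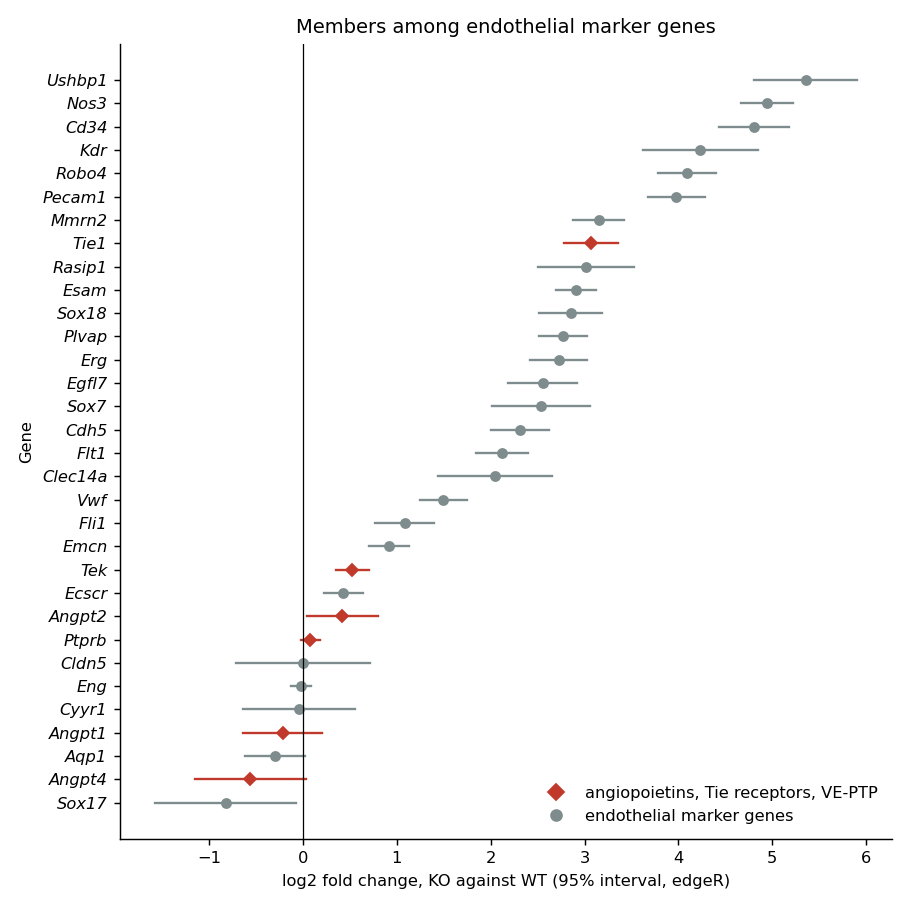
Log2 fold changes (KO over WT labels) and their 95% intervals from edgeR, for the 6 members (red diamonds) and 26 endothelial marker genes (grey circles), in order of size. *Tie1* (3.07) sits among the strongly raised markers, whereas *Tek* (0.53), *Angpt2* (0.42) and *Ptprb* (0.08) sit near the low end of the list.

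Other cells can carry these genes, since mural cells make *Angpt1*, and the Tie receptors are found on lymphatic endothelium and in the megakaryocyte lineage. Of 9 mural cell markers tested, 2 were higher and 4 lower, and the summed FPKM of all 12 ran from 136 to 138 in the libraries labelled KO and from 140 to 142 in those labelled WT, with *Higd1b* at 0 in every library. Among those past the threshold, the largest changes were rises of *Mcam*, an adhesion molecule that endothelial cells carry too (log2 fold change 1.38), and *Abcc9* (0.84), and falls of *Cspg4* (-0.43) and *Pdgfrb*, the PDGF receptor of pericytes and fibroblasts (-0.42). Without WT replicate 2 the count of lower genes was 2.

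Of 5 lymphatic markers tested, 2 were higher and 1 lower, the summed FPKM of all 7 ran from 119 to 122 and from 94.6 to 101. *Lyve1*, a hyaluronan receptor of lymphatic endothelium and of some macrophages, had 44.0, 34.3 and 35.6 FPKM in the libraries labelled KO and 0.744, 0.387 and 0.512 FPKM in those labelled WT (log2 fold change 6.08), and *Flt4*, the VEGF-C receptor gene, had 10.5, 7.71 and 9.89 FPKM against 2.54, 2.45 and 2.64 FPKM (1.84). *Pdpn*, which fibroblasts also express, fell (-0.43). *Ccl21a* was at 0, and *Prox1*, the lymphatic regulator, was under 0.65 FPKM in every library with a log2 fold change of -0.03. Of 5 megakaryocyte markers tested, 3 were higher and 0 lower, the summed FPKM of all 8 ran from 22.8 to 32.5 and from 4.49 to 6.62. Most of this sum was *Pf4*, platelet factor 4, with 29.1, 20.1 and 21.8 FPKM in the libraries labelled KO and 2.45, 4.05 and 2.94 FPKM in those labelled WT (log2 fold change 2.87). *Gp1ba*, a platelet adhesion receptor chain, had 20, 11 and 15 counts in the libraries labelled KO and 0 in each labelled WT. It entered the test only through the libraries labelled KO, and with a mean CPM of at least 1 asked for, 2 markers of this list were higher. *Gp1bb*, its partner chain, had a log2 fold change of -1.18 (adjusted p = 0.0723 from edgeR), and *Gp6* was at 0 in every library. The count of higher genes was 2 without KO replicate 1, KO replicate 3, WT replicate 1 or WT replicate 3, and that of lower genes was 1 without KO replicate 1. The part of such cells in the values of the members was not tested.

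Genes around the receptors were read from lists of binding partners, adaptors and kinases, and output genes. Of the 8 receptor partners tested, 3 were higher and 3 lower, with 4 higher without KO replicate 2 or any of the WT replicates in turn and 2 lower without WT replicate 3. *Kdr* (4.23), *Itgb3*, an integrin chain (3.05), and *Cdh5*, the VE-cadherin gene on whose product VE-PTP acts (2.31), rose, while *Svep1*, which encodes a matrix protein that binds Tie1 (-0.41), and the integrin chains *Itgav* (-0.22) and *Itgb1* (-0.20, named after its value was seen) fell. The *Cdh5* levels were 117, 77.9 and 91.5 FPKM in the libraries labelled KO and 17.9, 19.7 and 18.8 FPKM in those labelled WT, so this substrate of VE-PTP rose where *Ptprb* did not pass the test. *Lect2*, another gene of this list, had 18, 4 and 15 counts under the KO label and 1, 0 and 1 under the WT label. It was under the expression filter and not tested, and is named after its counts were seen.

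Of the 20 receptor adaptors and kinases tested, 2 were higher, 1 was lower and 17 did not pass, with a median log2 fold change of -0.04, where 30.2% of all genes tested passed in either direction. With the scaling on marker genes, which moves all genes upward, 15 of the 20 were higher and 0 lower. *Dok1*, an adaptor (0.29), and *Mapk3*, which encodes ERK1 (0.23), rose, and *Akt1*, the kinase downstream of Tie2 (-0.22), fell. With 1 library left out, the count of higher genes was 1 in 5 of the 6 fits (2 without KO replicate 3), and that of lower genes was 3 without KO replicate 2, 2 without WT replicate 2 and 1 otherwise. With the upper quartile 3 were lower.

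Of the 6 genes of FOXO factors and transcriptional output, all tested, 4 were higher and 1 was lower, and their median was 0.84. *Nos3*, the endothelial nitric oxide synthase (4.94), and *Birc5*, the survival and division gene survivin (1.40), rose most. *Foxo1*, named after its value was seen, had 5.64, 4.31 and 4.48 FPKM in the libraries labelled KO and 3.50, 3.51 and 3.43 FPKM in those labelled WT (log2 fold change 0.43, adjusted p = 0.0153 from edgeR). *Foxo4* fell (-0.32). Without WT replicate 3, 3 genes of this list were higher and 0 lower, so the call of *Foxo4* and 1 of the 4 calls of higher genes were lost.

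*Angpt2* is a known gene of endothelial tip cells, the leading cells of sprouts, and of 9 other tip cell genes 5 were higher and 3 lower. The count of higher genes was 4 without KO replicate 3 or WT replicate 1 and with the replicate block. *Kcne3*, a potassium channel subunit, was counted 9, 11 and 22 times under the KO label against 2, 5 and 0 times under the WT label. It entered the test only through the former, and 4 genes were higher with a mean CPM of at least 1 asked for. *Apln*, the ligand of the apelin receptor (5.32), and *Pgf*, placental growth factor (2.98), rose most, while *Cxcr4*, a chemokine receptor (-0.78), and *Nid2*, a basement membrane gene (-0.34), fell. *Esm1*, often used as the defining tip cell gene, had 1.78, 2.88 and 2.55 FPKM in the libraries labelled KO and 2.64, 2.60 and 3.92 FPKM in those labelled WT, with overlap (adjusted p = 0.270 from edgeR), and is named after its values were seen.

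**Figure D4:**
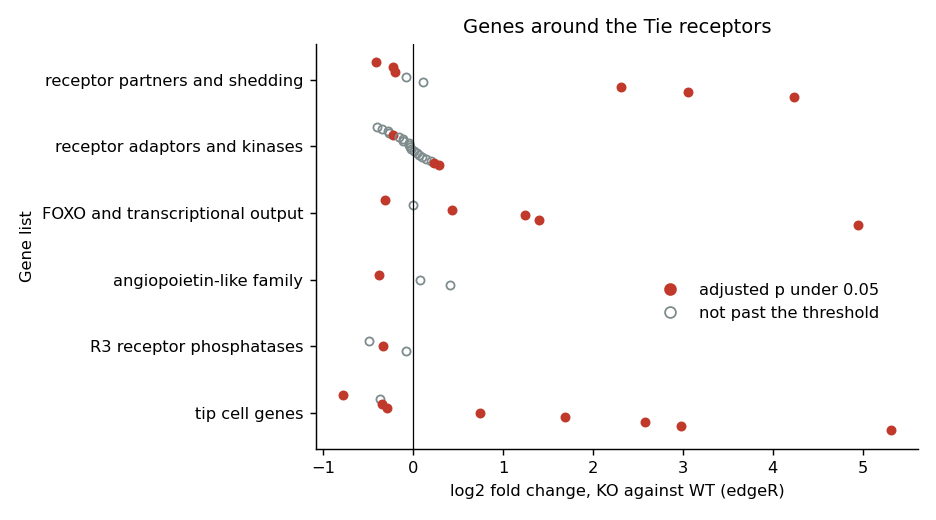
Log2 fold changes (edgeR) of the tested genes of each list around the Tie receptors, with filled red points for genes past an adjusted p under 0.05 and open grey points for the rest. The adaptors and kinases lie close to 0 with a median of -0.04, whereas partners, output genes and tip cell genes spread from -0.78 to 5.32.

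Genes with the most similar pattern were sought by the root mean square difference of log2(CPM + 0.5), centred on each gene's mean over the 6 libraries, over 11284 genes whose mean level reached 1 FPKM. Nearest to *Tie1* were *Mmrn2*, an endothelial matrix gene (0.069), *Itgb3* (0.084) and *Adgrl4*, an endothelial adhesion receptor (0.085), on a log2 scale on which *Tie1* itself varied by 1.52. Nearest to *Tek* were *Bbs4*, *Gm37416* and *Tnfaip2* (0.030 to 0.035, against 0.273 for *Tek* itself). For *Ptprb* (*Naa50*, *Epn1*, *Selt*), *Angpt1* (*Setmar*, *Qrich1*, *Mob3c*), *Angpt2* (*Nr1d2*, *Znhit3*, *Hmgb2*) and *Angpt4* (*Rnase1*, *Atoh8*, *Zfp37*) the nearest genes were within 0.078. The members other than *Tie1* varied little themselves (0.049 for *Ptprb* to 0.309 for *Angpt4*), so a small distance says little for them.

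**Figure D5:**
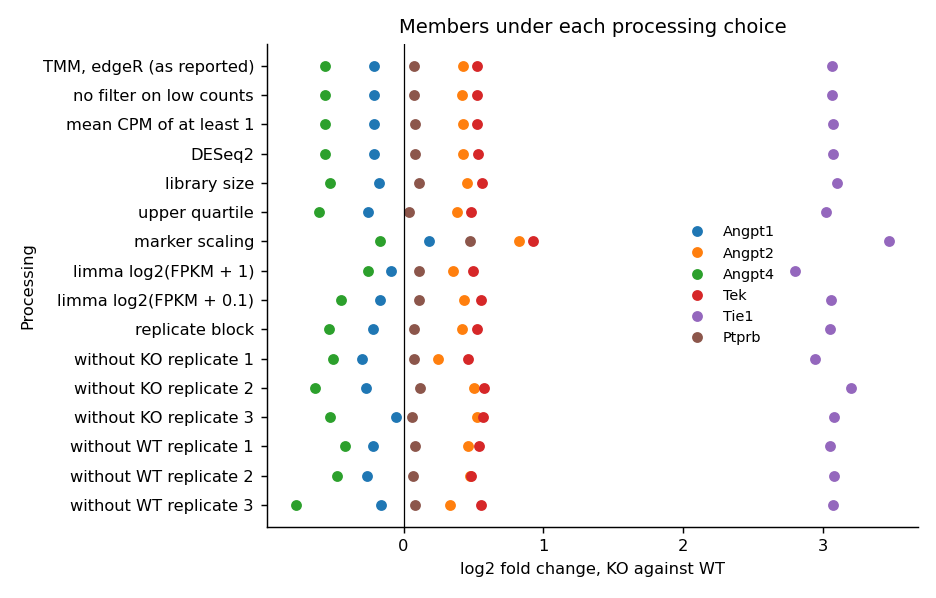
Log2 fold change of each member (colored points) under the processing used for the report and each alternative (rows on the vertical axis). *Tie1* stays between 2.80 and 3.47 and *Tek* between 0.46 and 0.93, while scaling on cardiomyocyte and macrophage marker genes moves every member upward and *Angpt1* across 0, to 0.18.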

How the data were processed

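Libraries were made from cardiac fibroblasts with a strand-specific kit. Reads were paired-end. The authors aligned them by HISAT2 with its default settings to mm10 and deposited raw counts per gene. The authors also deposited FPKM values, which are counts scaled to gene length and library size (implied lengths of the members agreed between libraries within a share of 1.22e-05). The submitters' processing notes name edgeR; the counting tool, annotation release and strand setting are not given in the sources used here.

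The test was run in R 4.3.3 with edgeR 4.0.16 (settings filterByExpr, TMM, glmQLFit, glmQLFTest, Benjamini-Hochberg over the 14084 genes tested), with all 6 libraries and no covariate. The floor covers counting error only, and the tests the spread of 3 libraries on each side. In simulated data for this comparison (13935 genes tested), edgeR recovered 94% of 100 genes changed 2-fold, with 5.88% false calls. The simulation used a single fixed dispersion and changed far fewer genes than the 30.2% called in these data. Its rates therefore need not hold here, nor for changes below 2-fold. Ratios used exact permutation tests. The members and lists were chosen with earlier results of these data known. Named genes are the members, *Kdm5b*, *Pecam1*, *Cdh5*, *Kdr*, the 2 largest rises and falls past the threshold of each list (for fibroblast, cardiomyocyte and macrophage markers mainly summed levels are given), and the 3 most similar genes per member. *Esm1*, *Kcne3*, *Lyz2*, *Nppa*, *Col1a1*, *Cd68*, *Higd1b*, *Ccl21a*, *Prox1*, *Gp1bb*, *Gp6*, *Angptl4* and *Ptprj* were named after their values were seen. Alternatives were other filters, DESeq2 1.42.0, other scalings, limma 3.58.1 on log2(FPKM + 1) and log2(FPKM + 0.1), a replicate block, each library left out, and a fold above 2 in addition.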

Additional observations from a re-analysis of the deposited data

How the results depend on the processing

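*Tie1* and *Tek* kept their direction and stayed past the threshold under all 15 alternatives, with log2 fold changes from 2.80 to 3.47 and from 0.46 to 0.93. Scaling on cardiomyocyte and macrophage marker genes gave *Angpt1* 0.18, *Kdm5b* 0.18, *Angpt2* 0.82 and *Ptprb* 0.48, the last 2 past the threshold, with 4 members higher, 34 higher and 0 lower in place of 14 and 10 genes of the pathway and family lists, and 0 in place of 30 marker genes lower, which follows from its upward move of all genes. Requiring a fold above 2, which can only reduce the counts, left 1 member higher. Of the pathway and family lists it kept 10 of 14 genes higher and 0 of 10 lower. Of the marker lists it kept 25 of 29 genes higher and 0 of 30 lower. *Kdm5b* passed the threshold with the upper quartile (-0.26) and with the replicate block (-0.21), and the cause was not tested. With each library left out, log2 fold changes ran from -0.77 to -0.42 for *Angpt4*, from -0.29 to -0.17 for *Kdm5b*, from 0.25 to 0.52 for *Angpt2*, from -0.30 to -0.06 for *Angpt1* and from 0.06 to 0.12 for *Ptprb*, and 0 to 1 members were lower. Among the members and *Kdm5b*, the calls that changed were *Angpt4* without WT replicate 3 (-0.77) and *Kdm5b* without WT replicate 1 (-0.29), and the cause was not tested. Same-numbered libraries deviated from their label means with correlations of only 0.0090, 0.0094 and 0.032, so the numbers are not taken as pairs, although each library correlated best with its own number. The replicate block gave 2316 genes higher and 1591 lower in place of 2488 and 1760 and changed no member's call. It gave 13 in place of 14 pathway and family genes higher. Of the marker genes it gave 28 in place of 29 higher and 31 in place of 30 lower. *Angpt1* and *Angpt4* rest on 22 to 71 counts per library, and what depth adds to their errors was not tested.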

Other observations

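The angiopoietin-like proteins share the build of the angiopoietins but are not established ligands of the Tie receptors. Of the 7 genes, 3 were tested, 0 were higher and 1 was lower. *Angptl2*, a secreted inflammatory factor, had 5.34, 5.33 and 4.95 FPKM in the libraries labelled KO and 6.44, 6.25 and 7.10 FPKM in those labelled WT (log2 fold change -0.37, adjusted p = 0.00512 from edgeR), without overlap and against 12.5% of all genes tested called lower. *Angptl4*, an inhibitor of lipoprotein lipase, overlapped between the labels (log2 fold change 0.08, adjusted p = 0.685).

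Among the other receptor phosphatases of the VE-PTP class, 3 of 4 were tested, and 0 were higher and 1 was lower. *Ptprq* had 4.51, 5.26 and 4.44 FPKM in the libraries labelled KO and 6.17, 5.53 and 5.85 FPKM in those labelled WT (log2 fold change -0.34, adjusted p = 0.0207 from edgeR), without overlap, but the call was lost on leaving out KO replicate 1, KO replicate 3, WT replicate 1 or WT replicate 3. *Ptprj*, which is also found on endothelial cells, had a log2 fold change of -0.08 (adjusted p = 0.426), and its level of 4.09 to 4.63 FPKM over all libraries was far below that of *Ptprb*.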
